A study of Mus musculus with 8 samples.

Results

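The genes of oxidative phosphorylation were followed across kinds of marrow progenitor nuclei, with the nuclear-coded and the mitochondrially coded genes kept apart. The members were taken by name from a table of 32285 genes: every gene whose symbol starts with mt-, and every symbol of the Nduf, Uqcr, Cox4 to Cox8 and Atp5 families in the form that names a subunit. This gave 90 genes, 77 nuclear-coded and 13 mt- genes. Of the nuclear-coded genes, 36 belong by name to complex I, 8 to complex III, 16 to complex IV and 17 to complex V. The mt- genes add 7 subunits of complex I, 1 of complex III, 3 of complex IV and 2 of complex V. A gene's level is its UMI count (a UMI is a tag that marks 1 captured RNA molecule).

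The series profiled nuclei of lineage-negative, Sca1+, ckit+ (LSK) cells sorted from bone marrow, a fraction that holds hematopoietic stem cells (HSC) and early progenitors, with the 10x multiome assay. The nuclei were isolated with digitonin, a mild detergent. The labels list 8 samples, 4 of RNA and 4 of ATAC, from WT mice and from littermates carrying T58A, a point mutation of MYC, with 2 samples per genotype and assay and 2 mice behind each. The table used here holds 8708 nuclei whose barcodes end in a suffix from 1 to 4, and each suffix is called a barcode set below. Neither the labels nor the headers tie a set to a genotype or a replicate, and the table is named for T58A only, so T58A and WT were not compared and the table was treated as 1 sample. No p-value was computed. Values are given for each set, sets are not replicates, and intervals at 95% cover counting error only.

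In the respiratory chain, complexes I, III and IV pass electrons from NADH to oxygen and pump protons across the inner mitochondrial membrane, and complex V, the ATP synthase, uses the proton gradient to make ATP. Each of these complexes joins subunits coded in the nucleus with subunits coded by mitochondrial DNA (mtDNA), and complex II, succinate dehydrogenase, is coded by the nucleus alone. Hematopoietic stem cells are known for relying less on oxidative phosphorylation than the progenitors they give rise to, and erythroid precursors need mitochondria for heme synthesis. Transcripts of mtDNA are made inside mitochondria, outside the nucleus, while a nuclear-coded transcript in a nucleus may be newly made or unspliced.

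The 13 mt- genes held 7925440 of the 45723860 UMIs in the table, a share of 17.3%. The 77 nuclear-coded genes held 98538 UMIs, a share of 0.216%, with a median of 7 UMIs per nucleus and none in 177 nuclei. Of the 77, Cox8b and Cox8c had 0 UMIs and 72 reached 50 UMIs, from 290 for the lowest of them to 5466 for Atp5a1, a catalytic-head subunit of complex V. The 4 barcode sets fell into 2 kinds by mt- share: 24.6% and 24.2% in sets 1 and 3, and 9.98% and 9.22% in sets 2 and 4. The nuclear-coded sum per 1000000 UMIs that are not mt- (CPM below) ran the other way, at 2313 and 2015 CPM in sets 1 and 3 against 3624 and 2811 CPM in sets 2 and 4. Because the sets differ this much, ratios between classes below were taken within a set. The marker checks of the gates are the exception and pool the sets. A barcode sequence was present in more than 1 set in 36 cases.

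Classes were gated on short marker lists. A nucleus had to hold at least 2 times the UMIs of a list expected from its depth (10 times for mature cells). Depth here counted all UMIs, mt- included, so at equal marker levels per non-mt UMI a higher mt- share gave a lower score. The gates are thus not independent of mt- share. The gates held 1333 HSC-gated, 658 myeloid-gated, 853 lymphoid-gated, 362 megakaryocyte-gated and 511 erythroid-gated nuclei, and 4299 nuclei passed no gate. Marker genes that the gates did not use were higher in each of these classes than in the other nuclei, by 1.73 to 5.08 times for HSC (lowest Slamf1, highest Procr), 2.56 to 12.8 times for myeloid, 3.72 to 11.1 times for lymphoid, 2.19 to 30.0 times for megakaryocyte and 11.9 to 31.8 times for erythroid. These marker ratios pool all sets, over which the classes are unevenly spread. A class is a range of a score, not a sharp type. Of the HSC-gated nuclei 433 lay between 2 and 2.5 times, and another 691 nuclei lay between 1.5 and 2 times. The erythroid gate held only 11 nuclei in set 2, under the minimum of 20, so erythroid values rest on sets 1, 3 and 4. Depth differed with class: the median nucleus had 2654, 5241, 2972 and 4894 UMIs in HSC-gated nuclei of sets 1 to 4, 4489, 9192, 5206 and 8782 in myeloid-gated nuclei, and 7702, 8414 and 13096 in erythroid-gated nuclei of sets 1, 3 and 4.

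Erythroid-gated and myeloid-gated nuclei held more mt- RNA, and more nuclear-coded oxidative phosphorylation RNA per non-mt UMI, than HSC-gated nuclei in every set measured. The mt- genes took 19.0%, 8.95%, 19.5% and 7.62% of all UMIs in HSC-gated nuclei of sets 1 to 4. In myeloid-gated nuclei they took 30.8%, 11.5%, 28.8% and 11.5%, and in erythroid-gated nuclei of sets 1, 3 and 4 they took 31.8%, 31.3% and 14.0%. In each set the values of both classes lay above the HSC-gated one.

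Lymphoid-gated nuclei, at 21.4%, 9.34%, 21.7% and 8.14%, and megakaryocyte-gated nuclei, at 20.1%, 9.81%, 21.5% and 9.38%, lay slightly above the HSC-gated nuclei of the same set. Per non-mt UMI the mt- sum was 1.98 times the HSC-gated value in erythroid-gated nuclei as the median of the sets (range 1.88 to 1.99) and 1.62 times in myeloid-gated nuclei (1.32 to 1.90). The corresponding ratios were 1.11 (1.05 to 1.16) for lymphoid-gated and 1.12 (1.08 to 1.26) for megakaryocyte-gated nuclei. The order erythroid over HSC was therefore seen in 3 of 3 sets and myeloid over HSC in 4 of 4. Nuclei in no gate also lay above HSC-gated nuclei in 4 of 4 sets, at 1.24 (1.06 to 1.38). At equal marker levels the gate score falls as mt- share rises, and its part in these ratios was not tested.

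The nuclear-coded sum had the same 2 classes on top, with smaller ratios. HSC-gated nuclei of sets 1 to 4 held 2126, 3106, 1860 and 2562 CPM. Myeloid-gated nuclei held 2494, 4745, 2101 and 3556 CPM, a median ratio of 1.28 (1.13 to 1.53), and erythroid-gated nuclei of sets 1, 3 and 4 held 3100, 2586 and 3885 CPM, a median ratio of 1.46 (1.39 to 1.52). The exact interval of each of these set ratios lay above 1. Of all UMIs, mt- included, these genes held 1529 of 885306 in myeloid-gated and 1781 of 1033558 in HSC-gated nuclei of set 1. In set 3 the counts were 1227 of 820306 and 2125 of 1419274, so on all UMIs the 2 classes were nearly equal in sets 1 and 3.

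Lymphoid-gated nuclei held 2140, 3250, 1860 and 2518 CPM, a median ratio of 1.00 (0.983 to 1.05), with every interval including 1. Megakaryocyte-gated nuclei held 2093, 3832, 1838 and 2807 CPM, a median ratio of 1.04 (0.985 to 1.23). Here sets 2 and 4 lay above 1 with intervals of 1.15 to 1.33 and 1.05 to 1.15, while those of sets 1 and 3 included 1.

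Of the other measures of RNA content, the nuclear RNA Malat1 was lower than in HSC-gated nuclei in every set of these classes. Ribosomal protein genes lay on both sides of 1. The part of either in the result was not tested. The summed cytosolic ribosomal protein genes, 97 in the table, had a median ratio to HSC-gated nuclei of 1.04 (range 0.906 to 1.19) in myeloid-gated, 1.02 (0.894 to 1.05) in lymphoid-gated, 0.948 (0.877 to 1.07) in megakaryocyte-gated and 0.955 (0.902 to 1.13) in erythroid-gated nuclei. By set the myeloid ratio was 0.958, 1.13, 0.906 and 1.19, above 1 in sets 2 and 4, where the nuclear-coded ratio was also largest, and the erythroid ratio was 0.955, 0.902 and 1.13 in sets 1, 3 and 4. Malat1, a long noncoding RNA kept in the nucleus, had ratios of 0.492, 0.752, 0.869 and 0.560 in the same order. Among nuclei of 4000 to 8000 UMIs alone, a window chosen after the data were seen, the erythroid ratio was 1.36 for the nuclear-coded sum and 2.41 for the mt- sum, in the 2 sets with enough nuclei. Among nuclei at or below the median mt- share of their set, which levels out the mt- share by construction, the nuclear-coded ratio was 1.31 in erythroid-gated nuclei (2 sets) and 1.16 in myeloid-gated nuclei.

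**Figure D1:**
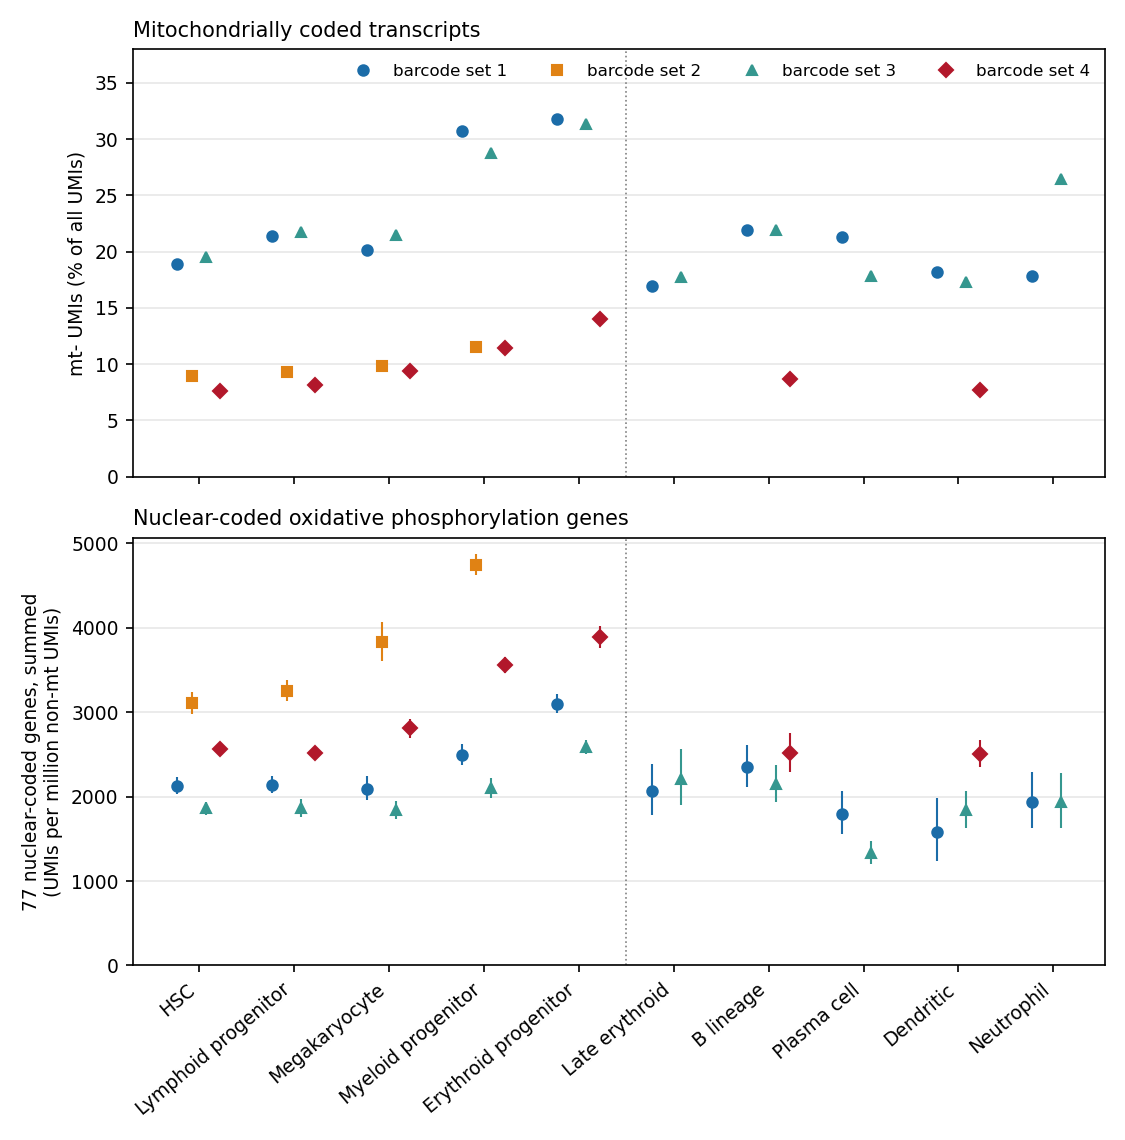
Share of mt- UMIs in percent of all UMIs (top) and summed level of the 77 nuclear-coded genes in UMIs per 1000000 non-mt UMIs (bottom) for each gated class; each point is 1 barcode set with at least 20 nuclei, bars are exact 95% Poisson intervals (bottom), and the dotted line parts progenitor gates (left) from mature gates (right). Sets 1 and 3 sit high at the top and low at the bottom, and within each set erythroid-gated and myeloid-gated nuclei lie above HSC-gated nuclei in both panels.

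Mature classes in the sort did not keep the high erythroid values. Late erythroid nuclei, gated on globin genes and Slc4a1 and measured in sets 1 and 3 (55 and 44 nuclei), had an mt- share of 16.9% and 17.8%. Their mt- sum per non-mt UMI was 0.871 and 0.892 times that of HSC-gated nuclei, and their nuclear-coded sum 0.971 and 1.19 times. These nuclei were shallow, with medians of 1441 and 1668 UMIs, and carried 190 and 173 nuclear-coded UMIs in all.

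Plasma cell nuclei had a nuclear-coded sum of 1799 and 1336 CPM in sets 1 and 3, or 0.846 and 0.718 times HSC-gated nuclei. Nuclei of the dendritic gate had 1577, 1841 and 2502 CPM in sets 1, 3 and 4, or 0.742, 0.989 and 0.977 times, the first from 22 nuclei with 72 nuclear-coded UMIs. The Malat1 level was 2.65 to 2.93 times the HSC-gated level in plasma cell nuclei and 1.24 to 1.41 times in nuclei of the dendritic gate. B lineage nuclei had mt- ratios of 1.20, 1.16 and 1.16 in sets 1, 3 and 4, and nuclear-coded ratios of 1.11, 1.16 and 0.980. Neutrophil nuclei differed between the sets, with mt- ratios of 0.929 in set 1 and 1.49 in set 3. In the dendritic gate, Siglech, a marker of the plasmacytoid kind, was 1.10 times the level of other nuclei, while Ciita and Cadm1 were high.

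By complex, the median erythroid ratio was highest for complex IV, cytochrome c oxidase, and lowest for complex I. The nuclear-coded complex IV genes summed to 392, 337 and 497 CPM in HSC-gated nuclei of sets 1, 3 and 4 and to 644, 508 and 855 CPM in erythroid-gated nuclei, a median ratio of 1.65 (1.51 to 1.72). Complex III, cytochrome bc1, had a median ratio of 1.504 (1.32 to 1.62), complex V 1.46 (1.44 to 1.47) and complex I, NADH dehydrogenase, 1.33 (1.32 to 1.46). The order of the complexes was not the same in each set, and the intervals of complexes III, IV and V overlapped within every set. The complex IV sum includes Cox6b2, described below, at 10.8 CPM in HSC-gated and 76.2 CPM in erythroid-gated nuclei over all sets. The whole complex IV sum was 457 and 667 CPM there. The first rank of complex IV thus depends in part on this gene, and the ranking without it was not computed.

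In myeloid-gated nuclei complex V (1.36, range 1.27 to 1.71) and complex I (1.30, 1.16 to 1.46) were above 1 in 4 of 4 sets. Complex III was above 1 in 3 of 4 sets (0.878 to 1.25) and complex IV in 2 of 4 (0.933 to 1.64). The 2 sets where complex IV was not higher, 1 and 3, were those with the high mt- share. The intervals of both ratios included 1. These sums go by gene name. Ndufa4, now counted as a subunit of complex IV and above HSC-gated nuclei in all 4 myeloid sets, lies in the complex I sum. Cox4i1, called higher in myeloid-gated nuclei, lies in none. With these genes in complex IV its count of sets could differ, and this was not computed. Lymphoid-gated nuclei had medians of 0.981, 0.924, 1.01 and 1.01 for complexes I, III, IV and V. Megakaryocyte-gated nuclei had 1.03, 1.02, 0.997 and 1.11, with complex V above 1 in 4 of 4 sets.

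Single genes were called higher or lower than in HSC-gated nuclei when the median set ratio of CPM plus 10 reached 1.5-fold with the same direction in every set used; this is a rule of size, not a test. In erythroid-gated nuclei 22 of the 72 measured nuclear-coded genes and 12 of the 13 mt- genes were called higher and 0 lower. Over all 9967 genes measured there, 18.4% were called higher and 22.1% lower. In myeloid-gated nuclei 10 of 72 nuclear-coded and 11 of 13 mt- genes were called higher and 0 lower, where 8.94% of 10402 genes were higher and 16.0% lower. The nuclear-coded calls were thus 30.6% of the measured members in erythroid-gated nuclei and 13.9% in myeloid-gated nuclei, beside 18.4% and 8.94% of all genes.

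No member was called in either direction in lymphoid-gated nuclei, where 5.55% of 10499 genes were higher and 8.43% lower, or in megakaryocyte-gated nuclei, where 4.36% of 9976 genes were higher and 7.76% lower. The median log2 ratio of the 72 nuclear-coded genes was 0.39 in erythroid-gated, 0.32 in myeloid-gated, -0.03 in lymphoid-gated and 0.09 in megakaryocyte-gated nuclei. Over all genes measured the medians were 0.05, -0.05, -0.02 and -0.01, and over genes shorter than 20 kb, a class that holds 67 of the 76 nuclear-coded genes with a RefSeq length, they were 0.13, 0.05, -0.01 and 0.00. Where all UMIs instead of non-mt UMIs were the denominator, the calls were 7 nuclear-coded and 9 mt- genes in erythroid-gated nuclei and 3 and 7 in myeloid-gated nuclei, and the median of all erythroid genes moved from 0.05 to -0.08. The calls over all genes were then 1165 higher and 2466 lower in erythroid-gated nuclei, from 1836 and 2205, and 644 higher and 1861 lower in myeloid-gated nuclei, from 930 and 1662. On that scale the nuclear-coded members called higher were 9.72% against 11.7% of all genes in erythroid-gated nuclei and 4.17% against 6.19% in myeloid-gated nuclei, so the excess over all genes was seen with non-mt UMIs and not with all UMIs as the denominator.

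**Figure D2:**
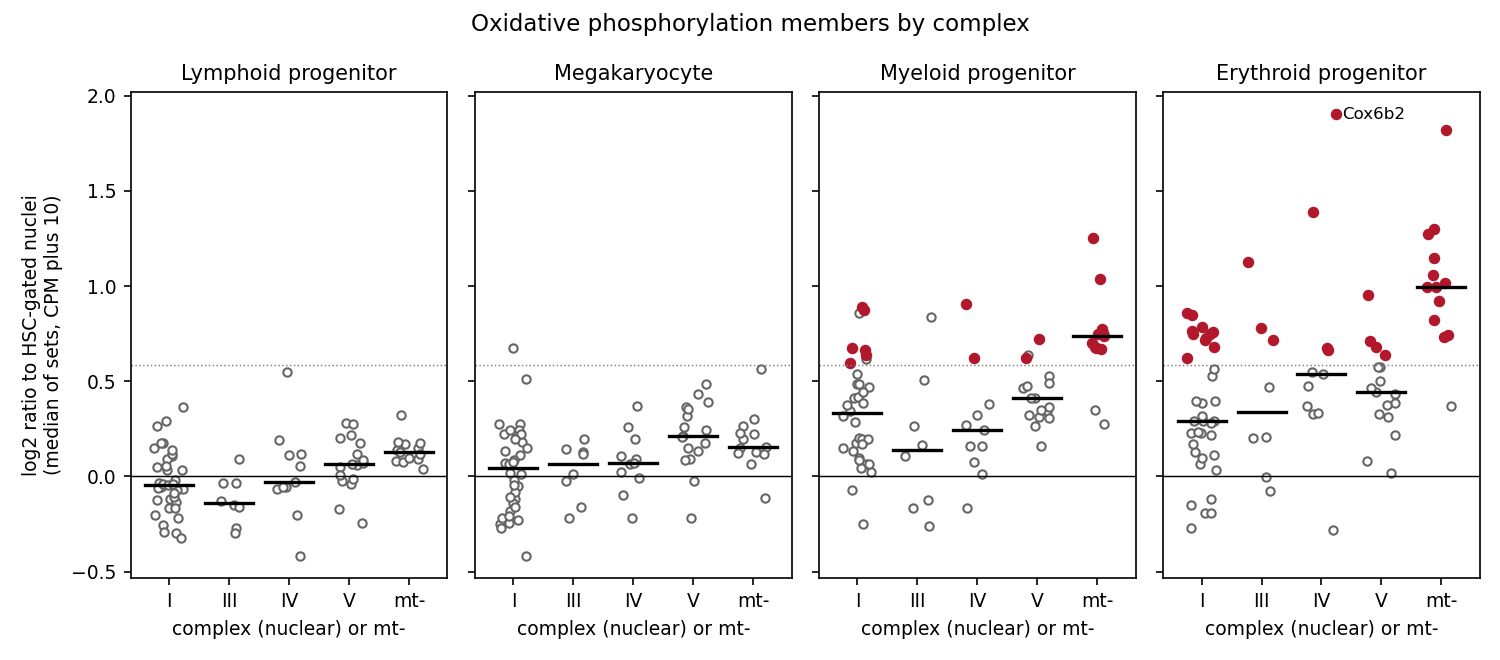
Log2 ratio of each measured gene to HSC-gated nuclei (median of barcode sets, CPM plus 10) by complex of the nuclear-coded genes and for the mt- genes, in the 4 progenitor gates; red points meet the 1.5-fold rule in every set, open points do not, bars are group medians and the dotted line marks 1.5-fold. The erythroid panel holds 22 nuclear-coded and 12 mt- red points and the lymphoid and megakaryocyte panels hold none.

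Cox6b2 stood furthest from HSC-gated nuclei of all nuclear-coded genes. It codes for a form of the COX6B subunit of complex IV known mainly from testis, and its counterpart in most tissues is Cox6b1. In HSC-gated nuclei of sets 1 to 4 Cox6b2 was at 15.5, 9.32, 11.4 and 9.44 CPM, and in erythroid-gated nuclei of sets 1, 3 and 4 at 85.4, 77.4 and 60.5 CPM. The ratios were 5.51, 6.81 and 6.41, and the lowest erythroid level was several times the highest HSC-gated one.

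Myeloid-gated nuclei, at 9.79, 11.1, 15.4 and 12.2 CPM, and megakaryocyte-gated nuclei, at 9.92, 14.0, 6.90 and 18.4 CPM, overlapped with HSC-gated nuclei. Lymphoid-gated nuclei of sets 1 to 4 had 0, 8, 2 and 14 UMIs, and the 0 in set 1 allows up to 3.76 CPM. Late erythroid nuclei had 2 UMIs of Cox6b2 among 205911 UMIs in all, too few to set them apart from HSC-gated nuclei. B lineage nuclei had 0, which allows up to 5.26 CPM. Of 612 UMIs in the table, 265 lay in the erythroid gate.

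Cox6b1 did not meet the rule in erythroid-gated nuclei: it was at 38.4, 38.4 and 55.9 CPM in sets 1, 3 and 4 against 14.3, 23.6 and 35.0 CPM in HSC-gated nuclei, a log2 ratio of 0.55. In myeloid-gated nuclei it met the rule narrowly, at 35.9, 87.5, 25.7 and 63.5 CPM and a log2 ratio of 0.62. Between these 2 classes Cox6b1 was close in set 1, at 38.4 CPM in erythroid-gated and 35.9 in myeloid-gated nuclei. It was higher in erythroid-gated nuclei in set 3 and lower in set 4. These values rest on 158 UMIs in erythroid-gated and 236 in myeloid-gated nuclei over all 4 sets, and the differences were not tested. The difference between the ratios of Cox6b1 and Cox6b2 was not tested.

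The 250 bases before the start sites of Cox6b2, Cox6b1 and Cox6a1 (RefSeq, GRCm38.p6) are shown because the first and last have the largest erythroid ratios among nuclear-coded genes with at least 100 UMIs and Cox6b1 is the other COX6B gene. These genes were picked after their values were seen. Each is written 5′ to 3′ on the strand of the gene, and capitals mark matches to the NRF1 motif (GCGCAN followed directly by GCGC) or the ETS motif CCGGAAG on either strand.
Cox6b2, chr7:4753095-4753344, minus strand: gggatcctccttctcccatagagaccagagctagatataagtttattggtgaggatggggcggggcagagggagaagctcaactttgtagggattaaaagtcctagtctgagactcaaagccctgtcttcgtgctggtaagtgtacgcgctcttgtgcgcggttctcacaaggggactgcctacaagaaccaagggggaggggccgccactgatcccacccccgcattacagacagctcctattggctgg
Cox6b1, chr7:30626115-30626364, minus strand: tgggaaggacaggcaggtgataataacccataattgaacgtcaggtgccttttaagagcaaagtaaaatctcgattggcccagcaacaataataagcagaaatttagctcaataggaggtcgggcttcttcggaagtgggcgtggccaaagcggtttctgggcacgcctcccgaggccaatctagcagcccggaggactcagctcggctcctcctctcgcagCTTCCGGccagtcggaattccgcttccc
Cox6a1, chr5:115348959-115349208, minus strand: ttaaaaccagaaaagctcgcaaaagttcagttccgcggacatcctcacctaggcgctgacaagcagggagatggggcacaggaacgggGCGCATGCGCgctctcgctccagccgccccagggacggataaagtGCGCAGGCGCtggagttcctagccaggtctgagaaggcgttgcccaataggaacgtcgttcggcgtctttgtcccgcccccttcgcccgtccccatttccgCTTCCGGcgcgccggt
The Cox6a1 stretch holds 2 NRF1 matches and 1 ETS match, the Cox6b1 stretch 1 ETS match, and the Cox6b2 stretch neither.

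NRF1 and the ETS-family factor GABP are textbook regulators of nuclear-coded respiratory genes. RefSeq start sites were matched for 65 of the 77 nuclear-coded genes, with 70 stretches of 250 bases in all. An NRF1 match was present in 17.1% of them, against 3.74% of the 32851 stretches of all genes, and an ETS match in 15.7% against 6.91%. The E-box CACGTG, the sequence that MYC with its partner MAX is known to bind, was in 10.0% against 6.02%. This share is only 7 of the 70 stretches, from 6 genes. The YY1 motif AAGATGGC was in 1.43%, a single stretch, against 1.56%, and the GATA motif AGATAA in 8.57% against 9.99%. A match is a description of the letters and not a binding site.

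Cox6a1, a complex IV subunit found in most tissues, had the second largest erythroid ratio. Its level was 23.9, 26.3 and 37.0 CPM in HSC-gated nuclei of sets 1, 3 and 4 and 79.7, 42.6 and 113 CPM in erythroid-gated nuclei, ratios of 3.34, 1.62 and 3.05. The erythroid values of every set were above all 3 HSC-gated values. Its muscle counterpart Cox6a2 had 27 UMIs in the table, of which 15 lay in lymphoid-gated and 1 in HSC-gated nuclei. Lymphoid-gated nuclei of sets 1 to 4 held Cox6a2 at 5.02, 4.74, 4.42 and 2.11 CPM, too few UMIs for the rule on measured genes.

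The other muscle or tissue-restricted forms were near 0. Cox7a1 had 15 UMIs in the table, with 4 in myeloid-gated nuclei as the most in any gate, and Cox7b2 had 3, all in nuclei that passed no gate. Cox7a2, the form of COX7A found in most tissues, was called higher in erythroid-gated nuclei, with ratios of 1.88, 1.75 and 1.83. Its relative Cox7a2l, which joins complexes III and IV into supercomplexes, had the lowest erythroid ratio among the nuclear-coded genes with at least 100 UMIs, at 0.783, 0.937 and 0.529. Their log2 ratios, 0.68 and -0.28, differed in sign.

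Cox5a, a core-associated subunit of complex IV, had the highest ratio of myeloid-gated and of lymphoid-gated nuclei. In HSC-gated nuclei it lay between 22.8 and 33.4 CPM, and in myeloid-gated nuclei of sets 1 to 4 at 39.2, 92.1, 42.8 and 79.4 CPM, ratios of 1.17, 3.84, 1.88 and 2.49. Lymphoid-gated nuclei had ratios of 1.35, 2.52, 1.94 and 1.14, a log2 ratio of 0.55 that missed the rule. Cox7c, the complex IV gene with the most UMIs, was not called in any class, with log2 ratios from -0.10 to 0.47.

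Of the 36 complex I genes, 11 were called higher in erythroid-gated and 6 in myeloid-gated nuclei, and Ndufb8 and Ndufs6 in both, shares of 30.6% and 16.7% beside 18.4% and 8.94% of all genes. Ndufs1, the largest iron-sulfur subunit, was at 56.1, 63.0 and 72.4 CPM in HSC-gated nuclei of sets 1, 3 and 4 and at 112, 107 and 140 CPM in erythroid-gated nuclei. Its ratios of 2.00, 1.71 and 1.93 gave a log2 ratio of 0.86, and every erythroid value exceeded every HSC-gated one. Ndufa10, an accessory subunit, followed at a log2 ratio of 0.85. In megakaryocyte-gated nuclei Ndufs1 had ratios of 1.72, 1.77, 1.09 and 1.27, among the highest there without meeting the rule.

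In myeloid-gated nuclei the complex I calls were Ndufb8, Ndufa13, Ndufa2, Ndufa4, Ndufs6 and Ndufa1. Ndufb8 had ratios of 3.42, 2.63, 2.69 and 1.95, and Ndufa13 of 3.12, 1.77, 2.45 and 2.30. Ndufa4, named for complex I but now counted as a subunit of complex IV, had ratios of 1.92, 1.69, 1.62 and 1.63. None of these 3 had a set below 1.

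Ndufs4, an accessory subunit and the complex I gene with the most UMIs, went the other way in all classes without being called. Its level in HSC-gated nuclei was 122, 180, 119 and 205 CPM in sets 1 to 4. Erythroid-gated nuclei of sets 1, 3 and 4 had 99.9, 97.0 and 157 CPM, ratios of 0.820, 0.815 and 0.765, and myeloid-gated nuclei had ratios of 0.710, 0.923, 0.978 and 0.747. Ratios were also below 1 in all 4 sets of lymphoid-gated and megakaryocyte-gated nuclei. By its RefSeq span, chr13:114287795-114388094, Ndufs4 is a long gene, and 1 nuclear-coded member is longer. Among members with at least 100 UMIs over both groups, Ndufc2 and Ndufa5 had the lowest log2 ratios in lymphoid-gated nuclei, -0.32 and -0.30, and in megakaryocyte-gated nuclei Ndufa13 and Ndufs3, -0.25 and -0.24, all short of the rule.

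Among the 8 complex III genes, 3 (37.5%) were called higher in erythroid-gated nuclei, beside 18.4% of all genes. In the other classes 0 were called higher, beside 8.94% of all genes in myeloid-gated, 5.55% in lymphoid-gated and 4.36% in megakaryocyte-gated nuclei. With 8 genes these shares rest on few calls. Uqcr11, a small accessory subunit, was at 50.9, 27.9 and 67.5 CPM in erythroid-gated nuclei of sets 1, 3 and 4, ratios of 2.84, 1.68 and 2.72. The core proteins Uqcrc1 and Uqcrc2 had log2 ratios of 0.72 and 0.78. Uqcrh, the hinge protein and the complex III gene with the most UMIs, was not called in any class and had the lowest myeloid log2 ratio, -0.26, with ratios of 1.01, 0.786, 0.719 and 0.859.

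Of the 17 complex V genes, 4 were called higher in erythroid-gated nuclei, Atp5g1, Atp5e, Atp5g3 and Atp5l, and 2 in myeloid-gated nuclei, Atp5g3 and Atp5l. These shares, 23.5% and 11.8%, lay near the 18.4% and 8.94% of all genes. Atp5g1, Atp5g2 and Atp5g3 code for the same mature subunit c of the rotor. Atp5g1 had erythroid ratios of 2.92, 3.59 and 2.29, and Atp5g3 of 1.83, 1.47 and 2.17. Atp5a1 was not called, with log2 ratios of 0.45 in erythroid-gated and 0.46 in myeloid-gated nuclei, and all 4 myeloid sets between 1.33 and 1.62. No complex V gene had a negative log2 ratio in these 2 classes, where the lowest were 0.02 and 0.16.

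The mt- genes did not move as 1 block. The rule was met in erythroid-gated nuclei by every mt- gene but mt-Co1, and in myeloid-gated nuclei by every one but mt-Co1 and mt-Nd6. mt-Nd1, a core membrane subunit of complex I coded at positions 2751 to 3707 of mtDNA, had the largest log2 ratios, 1.82 in erythroid-gated and 1.25 in myeloid-gated nuclei. mt-Co1, the catalytic core of complex IV coded at positions 5328 to 6872, had the smallest, 0.37 and 0.28.

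Shares among mt- UMIs show this without the mt- total. mt-Nd1 made up 5.38%, 5.53%, 4.93% and 4.97% of mt- UMIs in HSC-gated nuclei of sets 1 to 4. Its share was 8.22%, 8.76%, 7.19% and 7.40% in myeloid-gated nuclei and 9.52%, 8.82% and 9.19% in erythroid-gated nuclei of sets 1, 3 and 4. mt-Co1 went from 12.5%, 12.9%, 10.8% and 15.1% in HSC-gated nuclei to 8.71%, 8.32%, 8.12% and 11.2% in myeloid-gated and 8.07%, 7.38% and 10.0% in erythroid-gated nuclei. The shares of both genes in these 2 classes lay apart from the HSC-gated share in every set.

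Relative to HSC-gated nuclei the median share ratio of mt-Nd1 was 1.79 in erythroid-gated, 1.51 in myeloid-gated, 1.31 in megakaryocyte-gated and 1.13 in lymphoid-gated nuclei, above 1 in all sets of each. For mt-Co1 the ratios were 0.663, 0.719, 0.827 and 0.957 in the same order, below 1 in all sets. mt-Nd3 had ratios of 1.24 in both erythroid-gated and myeloid-gated nuclei, and mt-Nd2 of 1.22 and 1.05. The abundant mt-Co2 stayed between 0.958 and 1.03 as the median of each class. mt-Nd5 had 0.888 and mt-Co3 0.887 in erythroid-gated nuclei.

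By the RefSeq coordinates mt-Atp8 and mt-Atp6, mt-Nd4l and mt-Nd4, and mt-Nd5 and mt-Nd6 overlap. In addition, mt-Atp6 and mt-Co3 share position 8607. UMIs of these pairs may be shared between their counts. mt-Nd6 is coded on the opposite strand to its neighbours and had the fewest UMIs, 9755. Whether the counting used strand, and how it treated nuclear copies of mtDNA, is not given in the sources used here. mt-Nd1 and mt-Co1 overlap with no other member.

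**Figure D3:**
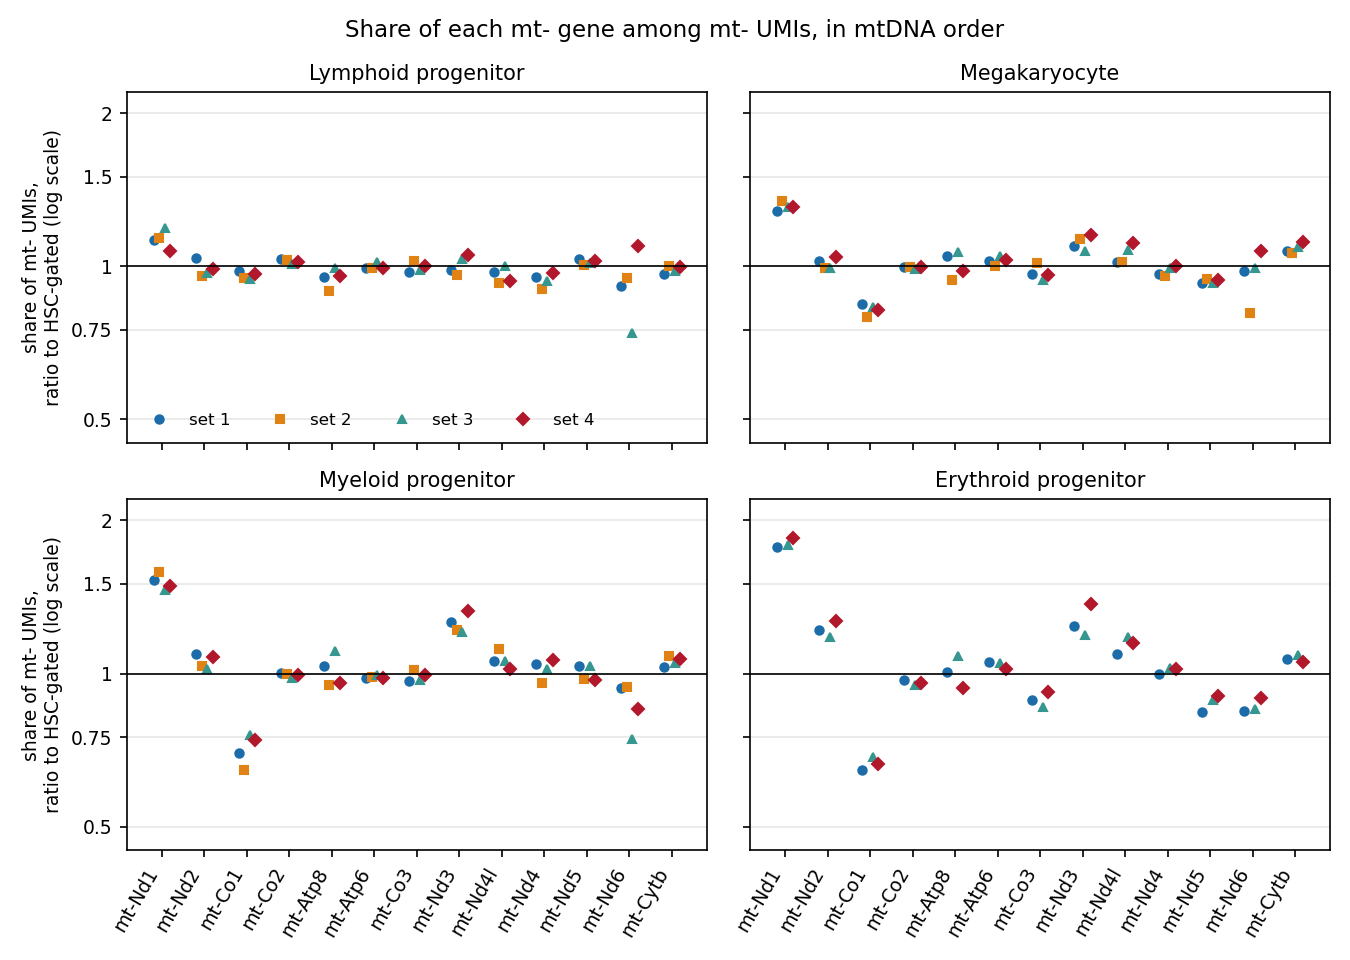
Share of each mt- gene among mt- UMIs as a ratio to HSC-gated nuclei of the same barcode set (log axis), with genes in their order along mtDNA; each point is 1 set and the line marks a ratio of 1. mt-Nd1 lies above 1 and mt-Co1 below 1 in every set of all 4 gates, furthest in erythroid-gated nuclei at medians of 1.79 and 0.663.

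The pair mt-Nd1 and mt-Co1, picked after the shares were seen, gives a ratio taken wholly within mt- RNA. There were 0.431, 0.430, 0.458 and 0.328 mt-Nd1 UMIs per mt-Co1 UMI in HSC-gated nuclei of sets 1 to 4. Lymphoid-gated nuclei had 0.495, 0.517, 0.579 and 0.364, megakaryocyte-gated nuclei 0.658, 0.727, 0.719 and 0.523, and myeloid-gated nuclei 0.944, 1.05, 0.886 and 0.662. Erythroid-gated nuclei of sets 1, 3 and 4 had 1.18, 1.20 and 0.916. In each set the order was HSC, lymphoid, megakaryocyte, myeloid and, where measured, erythroid, and no interval of one class overlapped with the next.

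In late erythroid nuclei of sets 1 and 3 the value was 0.389 and 0.357, below the HSC-gated value of the same set and far below the erythroid-gated one. B lineage nuclei, at 0.721, 0.869 and 0.660 in sets 1, 3 and 4, and plasma cell nuclei, at 0.852 and 0.655 in sets 1 and 3, lay between HSC-gated and erythroid-gated nuclei. Late erythroid nuclei thus had both the ratio and the mt- share low, while plasma cell nuclei of set 3 had an mt- share of 17.9%, below HSC-gated nuclei, beside a higher ratio. Over all nuclei the ratio was higher above the median mt- share of a set than at or below it, at 0.783 against 0.566, 0.773 against 0.548, 0.814 against 0.581 and 0.556 against 0.374 in sets 1 to 4. Within gates it was higher above that median in 20 of 21 pairs of a gate and a set, the exception being megakaryocyte-gated nuclei of set 1, and the intervals were apart in 15.

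Among nuclei of 4000 to 8000 UMIs the erythroid-gated values were 1.21 and 1.23 in sets 1 and 3 against 0.510 and 0.504 in HSC-gated nuclei. Among nuclei at or below the median mt- share of their set they were 1.12 and 1.02 against 0.420 and 0.448. Cycling moved with the classes: a UMI of Top2a or Mki67, genes of dividing cells, was present in 43.8% to 66.2% of HSC-gated, 78.9% to 95.8% of myeloid-gated and 94.4% to 100% of erythroid-gated nuclei by set, at the depths given above. HSC-gated nuclei with such a UMI had 0.491, 0.452, 0.481 and 0.354 mt-Nd1 per mt-Co1 UMI, against 0.368, 0.374, 0.434 and 0.264 in those without. Myeloid-gated nuclei of sets 1 and 3 had 0.888 and 0.893 without one and 0.952 and 0.884 with one. At these depths the lack of such a UMI does not show that a nucleus was not dividing, and the part of cycling in the ratio was not tested. Erythroid-gated nuclei without one numbered under 20 in every set and were not measured.

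**Figure D4:**
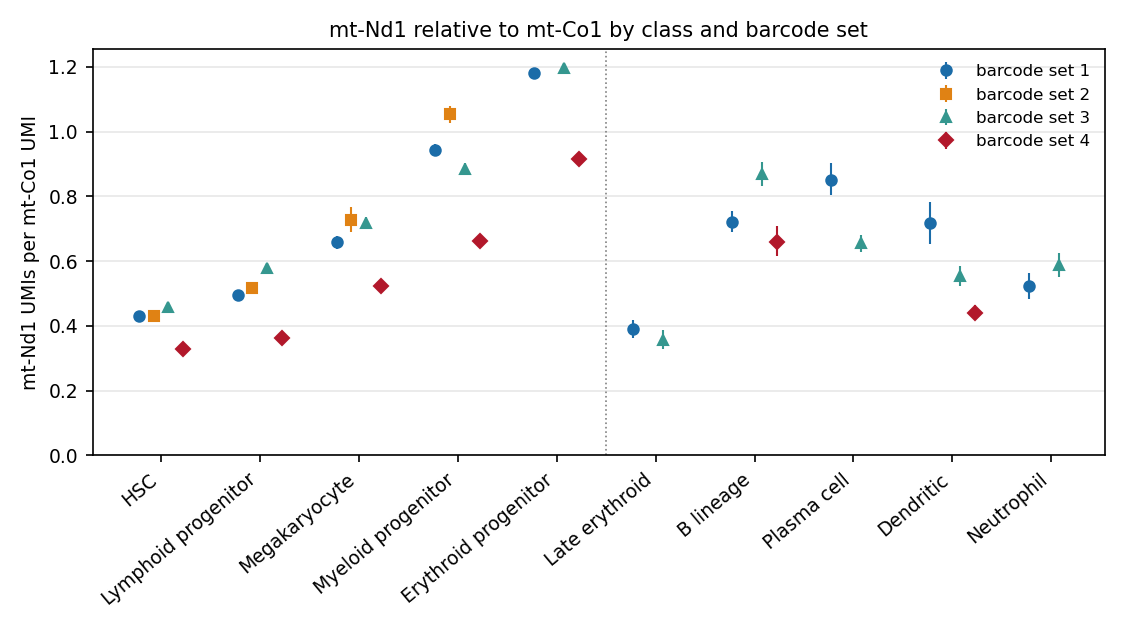
mt-Nd1 UMIs per mt-Co1 UMI for each gated class; each point is 1 barcode set with at least 20 nuclei, bars are exact 95% intervals for counting error (often smaller than the points), and the dotted line parts progenitor gates from mature gates. Values go from 0.328 to 0.458 in HSC-gated nuclei to 0.916 to 1.20 in erythroid-gated nuclei and are 0.357 and 0.389 in late erythroid nuclei.

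Over all nuclei of a barcode set, those with more mt- RNA also held more nuclear-coded oxidative phosphorylation RNA per non-mt UMI, the reverse of the order between sets. Nuclei of each set were split into 4 equal bands by mt- share. From the lowest to the highest band the nuclear-coded sum went from 2157 to 2683 CPM in set 1, from 2985 to 4423 in set 2, from 1832 to 2250 in set 3 and from 2446 to 3227 in set 4. Ribosomal protein genes were higher in the highest band too, for example 22785 against 19724 CPM in set 1, and Malat1 was lower, at 9099 against 12801 CPM. The part of these measures in the trend was not tested. Among HSC-gated nuclei alone the sums of the outer bands were closer, 2143 and 2350 CPM in set 1, 2881 and 3082 in set 2, 1717 and 2209 in set 3 and 2378 and 2642 in set 4, and only the intervals of sets 3 and 4 did not overlap. Within the 4 other progenitor gates the highest band lay above the lowest in 11 of 13 pairs of a gate and a set, with intervals apart in 7. The exceptions were lymphoid-gated nuclei of set 3, at 1965 CPM in the lowest and 1901 in the highest band, and megakaryocyte-gated nuclei of set 3, at 1942 and 1842 CPM. Lymphoid-gated nuclei of set 1, at 2190 and 2195 CPM, hardly differed. The bands over all nuclei mix classes that differ in mt- share, and the part of that mix in the trend was not tested. The trend over all nuclei also depended on the denominator. From the lowest to the highest band the mt- share went from 14.8% to 37.5% in set 1 and from 14.8% to 36.0% in set 3. With all UMIs as denominator, the nuclear-coded sum was lower in the highest band than in the lowest in sets 1 and 3, and higher in sets 2 and 4.

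Genes outside the 4 complexes that serve the same pathway were read from fixed lists. Of the 4 complex II genes, Sdhb, the iron-sulfur subunit, and Sdhd, a membrane anchor, were called higher in erythroid-gated nuclei, and Sdhd alone in myeloid-gated nuclei. These were 50% and 25% of the list, beside 18.4% and 8.94% of all genes, and each share rests on only 4 genes. Sdhd was at 9.55, 16.6 and 8.66 CPM in HSC-gated nuclei of sets 1, 3 and 4 and at 24.0, 23.7 and 40.7 CPM in erythroid-gated nuclei. Of 5 subunit and carrier genes that the naming rule does not match, 4 were measured. Cyc1 and Ndufab1 were called higher in erythroid-gated and Cox4i1 in myeloid-gated nuclei, again 50% and 25% of the 4.

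Of 31 measured assembly factors, 6 (19.4%) were called higher and 1 (3.23%) lower in erythroid-gated nuclei, beside 18.4% and 22.1% of all genes, so the share higher was near the background. The higher ones were Ndufaf4 and Ndufaf6 for complex I, Uqcc1 for complex III, and Cox10, Cox11 and Cox17 for complex IV. Cox10, which makes the heme A precursor, was at 43.0, 43.8 and 70.0 CPM in HSC-gated and 124, 114 and 137 CPM in erythroid-gated nuclei of sets 1, 3 and 4. Nubpl, an iron-sulfur factor for complex I, was the lower one, with a log2 ratio of -0.62. In myeloid-gated nuclei 1 of 34 (2.94%), Uqcc1, was called higher, beside 8.94% of all genes.

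Of 12 measured genes that express or maintain mtDNA, Lrpprc and Polg were called higher in erythroid-gated nuclei, 16.7% beside 18.4% of all genes, and none in the other 3 classes. Lrpprc, which stabilises and helps translate mt- messenger RNA, was at 140, 119 and 133 CPM in HSC-gated nuclei of sets 1, 3 and 4 and at 390, 343 and 371 CPM in erythroid-gated nuclei, a log2 ratio of 1.42. All 3 erythroid values lay far above the HSC-gated range.

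Among 8 nuclear regulators, Ppargc1a, the coactivator PGC-1alpha, was called lower than in HSC-gated nuclei in erythroid-gated, myeloid-gated and megakaryocyte-gated nuclei. Of the 8, 12.5% were called higher and 25% lower in erythroid-gated nuclei, beside 18.4% and 22.1% of all genes. In myeloid-gated nuclei 0% were higher and 12.5% lower, beside 8.94% and 16.0%. In megakaryocyte-gated nuclei 12.5% were higher and 12.5% lower, beside 4.36% and 7.76%. The erythroid and myeloid shares thus lay near or below those of all genes. It had 96 UMIs in HSC-gated nuclei, at 23.9, 30.6, 7.88 and 17.3 CPM in sets 1 to 4. Myeloid-gated nuclei had 8 UMIs, megakaryocyte-gated nuclei 6, and erythroid-gated nuclei 1 in sets 1, 3 and 4. Its relative Pprc1 was called higher in erythroid-gated nuclei, with 120, 156 and 105 CPM against 46.6, 42.9 and 52.7, and in megakaryocyte-gated nuclei, with a log2 ratio of 0.67. Gabpb1, which codes for the partner subunit of GABP, was called lower in erythroid-gated nuclei, with 65.3, 66.3 and 96.6 CPM against 142, 152 and 158. In lymphoid-gated nuclei no gene of the 5 lists was called.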

How the data were processed

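RNA was measured as UMI counts, deposited by the authors as 1 table with no normalization; every value was a whole number. Cell Ranger ARC, Seurat, Signac and mm10 are named in the submitters' processing notes. Versions, annotation, nucleus filters and whether intronic reads were counted are not given in the sources used here. ATAC data were not used here. Unused columns of per-sample values numbered 0.

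All 8708 nuclei were kept and no doublet caller was run; 391 nuclei passed more than 1 gate and took the gate with the largest ratio over its threshold. Progenitor gates needed a ratio of 2, 3 UMIs and 2 genes, and mature gates a ratio of 10, 5 UMIs and 2 genes. The expected count used all UMIs of the nucleus, mt- included, and the share of the list over all sets. The gate markers were Mecom, Hlf, Fgd5, Mllt3 and Rarb (HSC), Mpo, Elane, Ctsg, Prtn3 and Ms4a3 (myeloid), Dntt, Il7r, Cmah, Arpp21 and Fgf13 (lymphoid), Pf4, Itga2b, Rab27b, Vwf and Gp5 (megakaryocyte), and Car1, Slc25a21, Ermap, Kel, Klf1 and Epor (erythroid). A class needed 50 nuclei, which left out mast cell and T or NK gates, and a set value 20 nuclei. UMIs were summed per class and set and divided by non-mt UMIs. Genes with at least 50 UMIs over both groups were measured, with 10 CPM added in the 1.5-fold rule, and that rule was tested on simulated data. Printed ratios of single genes by set are without the added 10. Intervals are exact Poisson for levels and exact binomial for shares and ratios. The limit for a count of 0 is 3 UMIs.

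The members, lists and gates were chosen with earlier results of these data known. Genes named are the mt- genes, the gene with most UMIs per complex, the 2 highest and 2 lowest ratios per class with at least 100 UMIs, genes called, isoform groups and genes of the pathway lists. Python 3.11.15, numpy 2.4.6, scipy 1.17.1 and pandas 2.3.3 were used.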

Additional observations from a re-analysis of the deposited data

How the results depend on the processing

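No paired analysis was possible because no barcode set could be tied to a labelled sample or replicate number. Ratios to HSC-gated nuclei are given as medians of sets in the order myeloid, lymphoid, megakaryocyte and erythroid. With all UMIs as denominator the nuclear-coded ratio was 1.17, 0.977, 1.03 and 1.23 and the mt- ratio 1.49, 1.09, 1.10 and 1.68, with 10 members called higher in myeloid-gated and 16 in erythroid-gated nuclei (21 and 34 otherwise). A gate ratio of 1.5 gave mt- ratios of 1.55, 1.08, 1.09 and 1.89 and 1 member higher in megakaryocyte-gated nuclei. A gate ratio of 3 gave nuclear-coded ratios of 1.38, 1.03, 1.11 and 1.55, mt- ratios of 1.70, 1.10, 1.14 and 2.09, and 1 member higher each in lymphoid-gated and megakaryocyte-gated nuclei. Without nuclei in several gates the mt- ratio was 1.12 in lymphoid-gated, 1.14 in megakaryocyte-gated and 2.00 in erythroid-gated nuclei, with 1 member higher in megakaryocyte-gated nuclei. Nuclei at or below the median mt- share of their set gave nuclear-coded ratios of 1.16 (myeloid) and 1.31 (erythroid) and mt- ratios of 1.12, 1.02, 1.03 and 1.08, with 4 members higher in myeloid-gated, 1 in lymphoid-gated and 7 in erythroid-gated nuclei (where 38 members were measured) and 2 lower in megakaryocyte-gated nuclei. There mt-Co3 reversed in erythroid-gated nuclei, with a log2 ratio of -0.068; levelling mt- share removes mt- differences by construction. Nuclei without Top2a and Mki67 gave nuclear-coded ratios of 1.13, 0.963 and 0.981 and mt- ratios of 2.28, 1.09 and 1.15 for the first 3 classes (from 2, 4 and 1 sets, the last 27 nuclei of set 3, so not over the sets of the other medians), with 1 member higher and 1 lower in lymphoid-gated and 1 lower in megakaryocyte-gated nuclei; erythroid-gated nuclei were too few. Nuclei of 4000 to 8000 UMIs, a window added after seeing the data, gave nuclear-coded ratios of 1.11 (megakaryocyte) and 1.36 (erythroid), mt- ratios of 1.77, 1.10, 1.17 and 2.41, and 1, 4 and 20 members higher in lymphoid-gated, megakaryocyte-gated and erythroid-gated nuclei, with 1 lower in the last (31 members measured). With 1 CPM added, 2 members were higher in lymphoid-gated and 1 lower in megakaryocyte-gated nuclei. Leaving out each set gave nuclear-coded ratios of 1.17 to 1.39, 1.00 to 1.01, 0.988 to 1.10 and 1.42 to 1.49, and mt- ratios of 1.57 to 1.67, 1.07 to 1.14, 1.11 to 1.13 and 1.93 to 1.99. Up to 1 member was then called higher and up to 1 lower in lymphoid-gated nuclei, from 0, and up to 2 higher in megakaryocyte-gated nuclei, from 0. mt-Nd1 per mt-Co1 UMI, with ratios to HSC-gated nuclei of 2.10, 1.18, 1.58 and 2.74, went from 1.87 to 2.37, 1.03 to 1.22, 1.36 to 1.73 and 2.40 to 3.01 over the alternatives. Of 196 values of sums and counts under an alternative, 107 stayed within counting error or 1.5 times and 89 moved further. The cause of the other differences was not tested. For single called genes, 102 values under an alternative no longer met the 1.5-fold rule. The low UMI counts of single nuclear-coded genes limit their ratios, and fewer genes were measured where fewer nuclei were used.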
